A study of Mus musculus with 6 samples.

Results

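The potassium channel gene family was examined in cells from the olfactory bulb of mice, sorted by the fluorescence of Twitch-2B and labelled as adult-born. Members were all genes of the count table whose symbol starts with Kcn, which gave 99 of 55573 genes: 40 voltage-gated channel genes, 15 inward rectifiers (Kcnj), 14 tandem-pore channels (Kcnk), 8 Ca2+- or Na+-activated channels, 17 auxiliary genes and 5 noncoding RNAs. The Kv1.2 group (2 libraries) received a lentivirus that encodes the voltage-gated channel Kv1.2, from human cDNA, together with the Ca2+ sensor Twitch-2B. The Kir2.1 group (2 libraries) received the inward rectifier Kir2.1, from mouse cDNA, in the same arrangement, and the control group (2 libraries) received Twitch-2B with a nuclear mCherry and no channel. All viruses shared the FUGW backbone and were injected on both sides into the rostral migratory stream of male C57BL/6 mice aged 3 months. Cells were taken 9 days after injection, and each library pooled 2 mice, so that 12 mice gave 6 libraries. The labels do not say more about how the libraries of a group were separated, so p-values measure the spread between these pools.

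K+ channels let K+ leave the cell along its gradient and thereby set the resting potential, the repolarisation after an action potential and the rate of firing. Voltage-gated channels open on depolarisation, inward rectifiers pass current mainly near and below the resting potential, tandem-pore channels carry background current, and Ca2+-activated channels couple repolarisation to Ca2+ entry. Young neurons acquire these currents step by step as they mature, glia use Kcnj10 and Kcnj16 to take up K+, and microglia hold their potential with the tandem-pore channel THIK-1, the product of Kcnk13. In bulk samples a level relative to all reads depends on which cells are present as well as on each cell's RNA, and fewer cells of a type and less RNA per cell cannot be told apart here.

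Most pore-forming members carry a short K+ selectivity filter, in which each subunit lines the pore with a threonine, an aliphatic residue, glycine, an aromatic residue and glycine. The coding bases of the filter are shown for the overexpressed channels and for 3 members in which 1 or both channel groups lay apart from control, with the filter codons in capitals and 15 bases on each side (GENCODE transcripts of GRCm38, 5′ to 3′, all on the plus strand). The filter of Kcna2 lies at chr3:107105209-107105253 and that of Kcnj2 at chr11:111072192-111072236. Kcnk13 has the filter in each of its pore loops, the second at chr12:100061361-100061405, and the stretches of Kcnd2, Kcnd1 and the first Kcnk13 loop cross an exon junction.
Kcna2: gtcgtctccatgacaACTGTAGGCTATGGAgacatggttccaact
Kcnj2: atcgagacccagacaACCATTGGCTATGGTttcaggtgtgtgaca
Kcnd2: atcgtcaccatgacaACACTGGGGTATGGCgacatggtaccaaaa
Kcnd1: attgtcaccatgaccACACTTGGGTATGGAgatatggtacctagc
Kcnk13 (loop 1): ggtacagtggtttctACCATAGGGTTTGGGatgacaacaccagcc
Kcnk13 (loop 2): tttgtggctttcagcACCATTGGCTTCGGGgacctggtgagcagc

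The libraries held 8871595 to 13632970 counts. Levels are given as CPM, the counts of a gene relative to the TMM-scaled total of its library. Over all members, summed CPM was 166 and 217 in the Kv1.2 libraries and 338 and 211 in the Kir2.1 libraries, against 955 and 915 in the control libraries. Both control libraries lay above all 4 channel libraries. The number of members at 1 CPM or more of the library total before TMM scaling was 9 and 9 in Kv1.2 libraries and 14 and 7 in Kir2.1 libraries, against 28 and 48 in control libraries. Of all genes, 8727 and 8552 reached this level in Kv1.2 libraries and 10151 and 8520 in Kir2.1 libraries, against 9071 and 12061 in control libraries. No number over all genes was taken for members over 10 counts or with any count. Over 10 counts were found for 9 and 9 members in Kv1.2 libraries and for 11 and 7 in Kir2.1 libraries, against 27 and 48 in control libraries. Members with any count numbered 39 and 44 in Kv1.2 libraries and 67 and 56 in Kir2.1 libraries, against 73 and 63 in control libraries, so that fewer members passed these levels in the channel libraries while the Kir2.1 libraries overlapped the control libraries in members with any count. The 5 members with the most CPM took 85.8% and 89.0% of the family's CPM in the Kv1.2 libraries and 88.3% and 92.5% in the Kir2.1 libraries, against 56.2% and 38.6% in the control libraries.

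The classes did not move together. Summed CPM of the voltage-gated genes was 10.4 and 6.43 in Kv1.2 libraries and 50.4 and 39.6 in Kir2.1 libraries, against 396 and 452 in control libraries. A single member, Kcnd1, made up most of the Kir2.1 values, which were 16.1 and 3.35 without it. The Ca2+- or Na+-activated genes summed to 0.721 and 0.570 CPM in Kv1.2 libraries and 5.53 and 8.42 CPM in Kir2.1 libraries, against 26.4 and 70.6 CPM in control libraries. Inward rectifiers summed to 28.5 and 59.4 CPM in Kv1.2 libraries and 47.6 and 29.4 CPM in Kir2.1 libraries, against 93.3 and 212 CPM in control libraries. In these 3 classes every channel library lay below both control libraries. Tandem-pore genes were different, with 70.9 and 47.0 CPM in Kv1.2 libraries and 142 and 29.5 CPM in Kir2.1 libraries, against 56.0 and 71.1 CPM in control libraries, so that the groups overlapped. Auxiliary genes summed to 16.4 and 71.5 CPM in Kv1.2 libraries and 7.79 and 5.80 CPM in Kir2.1 libraries, against 188 and 62.7 CPM in control libraries, and here the Kv1.2 libraries overlapped the control libraries while the Kir2.1 libraries lay below them.

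**Figure D1:**
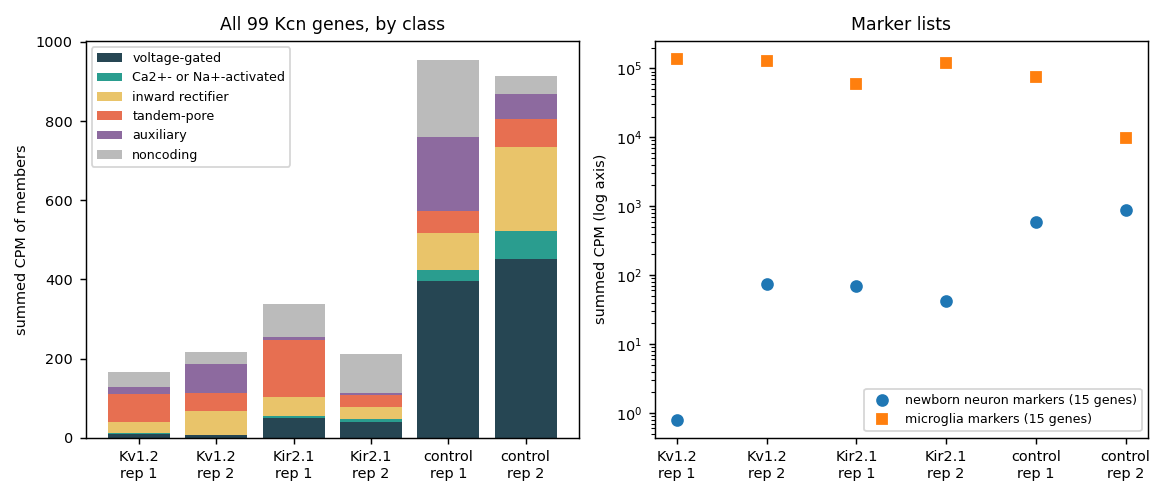
Left, summed CPM of the 99 Kcn genes in each library, stacked by class; right, summed CPM (log axis) of 15 newborn neuron and 15 microglia marker genes in the same libraries. The control bars reach 955 and 915 CPM, of which voltage-gated genes hold 396 and 452 CPM, while the channel libraries reach 166 to 338 CPM.

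Levels of marker genes of cell types differed between the libraries as well. The 15 newborn neuron markers summed to 0.801 and 75.3 CPM in Kv1.2 libraries and 70.1 and 42.4 CPM in Kir2.1 libraries, against 595 and 878 CPM in control libraries, and 0 and 4, 4 and 2, against 9 and 15 of the 15 were at 1 CPM or more. Dcx, the marker of migrating neuroblasts, was at 0 counts in Kv1.2 replicate 1 and in both Kir2.1 libraries. The 15 microglia markers were all above 1 CPM in every library and took 12.6% and 12.0% of counts in Kv1.2 libraries and 7.34% and 11.5% in Kir2.1 libraries, against 7.48% and 0.856% in control libraries. The 9 astrocyte markers summed to 231 to 366 CPM in Kv1.2 libraries and 298 to 359 CPM in Kir2.1 libraries, against 1057 to 3288 CPM in control libraries, with 3 of 9, 2 to 3 of 9 and 7 to 9 of 9 at 1 CPM or more. The sorted samples were labelled as adult-born cells, and markers of microglia were the most abundant of the marker lists in each library. Their part in the differences of K+ channel genes was not tested.

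The overexpressed channels came first in the comparison of groups. Kcna2, which encodes Kv1.2, had 1.92 and 0.407 CPM in Kv1.2 libraries and 0.272 and 0.0906 CPM in Kir2.1 libraries, against 0.299 and 54.0 CPM in control libraries. Only control replicate 2 stood high, so the counts of this gene do not bear out the labels. By qPCR of sorted cells the paper reports more Kcna2 mRNA in its Kv1.2 group and more Kcnj2 mRNA in its Kir2.1 group. It also reports a raised Kv1.2 immunofluorescence. The Kv1.2 insert was human cDNA, whose reads need not align to the mouse gene, and its part in the Kcna2 counts was not tested. Kv1.2 and Kir2.1 libraries are here the libraries so labelled. Kcnj2, which encodes Kir2.1, had 5.80 and 28.3 CPM in Kir2.1 libraries and 17.7 and 0.0814 CPM in Kv1.2 libraries, against 8.66 and 10.7 CPM in control libraries. Kir2.1 replicate 2 was the highest library and Kir2.1 replicate 1 lay below both control libraries, so the groups overlapped. The edgeR log2 fold change was −4.53 ± 2.84 (SE) for Kcna2 in the libraries labelled Kv1.2 (adjusted p = 0.558), and 0.82 ± 2.38 for Kcnj2 in those labelled Kir2.1 (adjusted p = 0.959), and both signs depended on 1 library: without control replicate 2 the Kcna2 value was 1.93, and without Kir2.1 replicate 2 the Kcnj2 value was −0.74.

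Of the 99 members, 28 reached the minimum for testing (1 CPM of the total before TMM scaling in at least 2 of 6 libraries) and 71 did not. Of the 28, 11 passed through the control libraries only and so had to be lower in the channel groups, against 5.08% of all 12275 genes tested, and 1 (Kcnd1) passed through channel libraries only, against 9.1% of all genes. The counts that follow are therefore a description. In edgeR's quasi-likelihood test, 0 members passed an adjusted p of 0.05 in the Kv1.2, Kir2.1 or joint comparison with control, where 0%, 0% and 0.0244% of all genes passed. At an unadjusted p under 0.05, 12 members were lower and 0 higher in the Kv1.2 group, where 12% of all genes were past it, 8.81% lower and 3.23% higher. In the Kir2.1 group 13 members were past it (9.4% of all genes), with 11 lower and 2 higher, where 6.15% and 3.25% of all genes were. In the mean of both channel groups 17 were lower and 1 higher, where 13.4% of all genes were past it, 10.5% lower and 2.85% higher. DESeq2 placed 11, 12 and 12 members at an adjusted p under 0.05 in the Kv1.2, Kir2.1 and joint comparisons, where 10.6%, 8.06% and 10% of all genes were, and edgeR's likelihood ratio test placed 6, 4 and 15, where 5.89%, 1.83% and 8.94% of all genes were. The 3 comparisons share the control libraries. Among the 28 members, the median log2 fold change was −5.46 in the Kv1.2 group, −5.09 in the Kir2.1 group and −5.18 in the joint comparison, beside −0.12, 0.04 and −0.19 over all genes tested. With genes of a group at 0 counts set to their bound, it was −5.45, −4.97 and −5.18.

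All 4 channel libraries lay below both control libraries in 15 of the 28 members and above them in 1, where 13.8% and 8.52% of all genes did so. The 11 members that passed the minimum through the control libraries only had to be among these 15. The counts by class that follow include the same 11. By class, 11 of 14 tested voltage-gated genes, 2 of 4 inward rectifiers, 2 of 4 auxiliary genes, 1 of 2 Ca2+- or Na+-activated genes and 1 of 3 tandem-pore genes were lower at an unadjusted p under 0.05 in the joint comparison. The noncoding Kcnq1ot1 was not among them. Of the 28 tested members, 9 share exonic bases with a gene on the other strand and Kcnab2 with a gene on its own strand, where reads cannot be told apart.

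**Figure D2:**
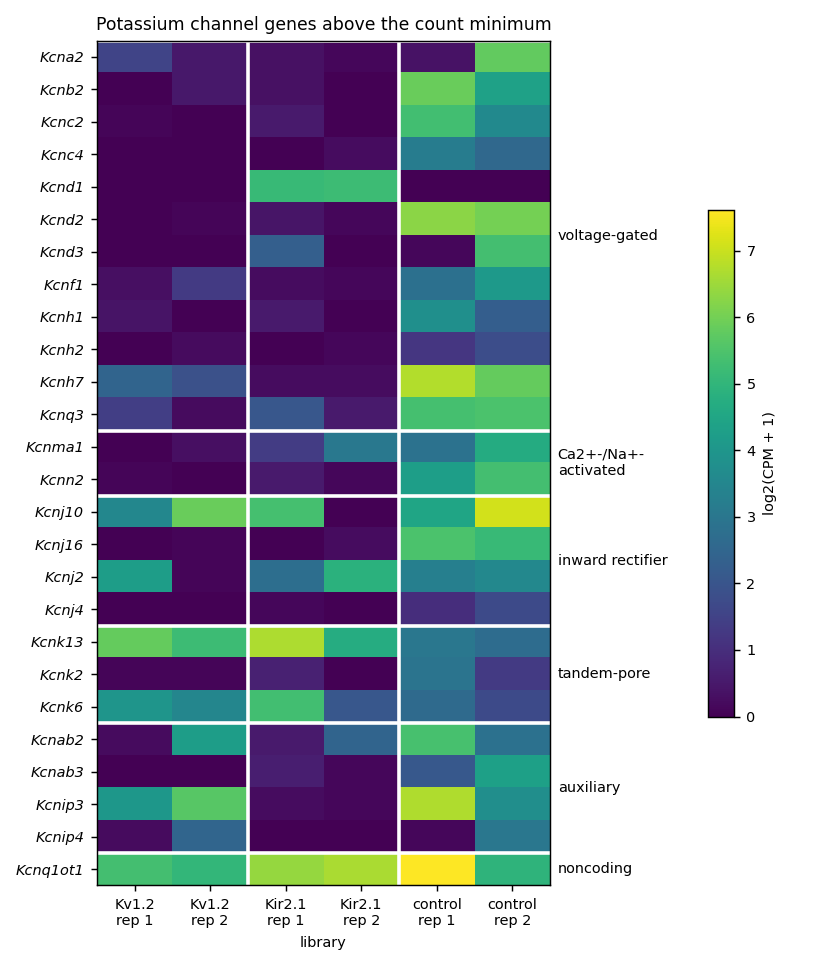
Levels of 26 of the 28 tested Kcn genes as log2(CPM + 1) by library, grouped by class; each row is a gene and each column a library. Most voltage-gated genes are bright in the control columns and dark in the Kv1.2 and Kir2.1 columns, whereas Kcnk13 is brighter in the channel columns and Kcnd1 is above 0 in the Kir2.1 columns only.

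The A-type channels of the Kv4 family, which open below threshold and delay firing, each had a pattern of their own. Kcnd2 (Kv4.2; chr6:21215503-21729805) had 0 and 0.0814 CPM in Kv1.2 libraries and 0.362 and 0.0906 CPM in Kir2.1 libraries, against 76.7 and 63.9 CPM in control libraries. It was near 0 in all 4 channel libraries, with 1 count over the Kv1.2 libraries and 1304 over the control libraries, a ratio of 1756 lower (95% counting interval 315 to 69397). The joint edgeR log2 fold change was −9.30 ± 1.68 (unadjusted p = 0.000815, adjusted p = 0.135, the smallest adjusted p of any member). Its close relative Kcnd1 (Kv4.1; chrX:7822289-7838280) had 0 counts in both Kv1.2 and both control libraries and 34.2 and 36.2 CPM in the Kir2.1 libraries. Its 778 counts in the Kir2.1 group made it at least 216-fold higher than in control, where 3 counts were taken as the limit of detection for the group (unadjusted p = 0.0166, adjusted p = 0.521). Kcnd3 (Kv4.3) had 0 and 0 CPM in Kv1.2 libraries and 3.90 and 0 CPM in Kir2.1 libraries, against 0.0996 and 39.7 CPM in control libraries, and did not reach an unadjusted p under 0.05 in any comparison with control.

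Kcnb2 (Kv2.2), a delayed rectifier that carries K+ current during sustained firing, had 0 and 0.407 CPM in Kv1.2 libraries and 0.272 and 0 CPM in Kir2.1 libraries, against 57.5 and 19.4 CPM in control libraries (joint log2 fold change −7.76 ± 2.28, adjusted p = 0.215). The electrically silent subunit Kcnf1 (Kv5.1), which joins Kv2 channels, had 0.240 and 1.47 CPM in Kv1.2 libraries and 0.181 and 0.0906 CPM in Kir2.1 libraries, against 5.97 and 16.3 CPM in control libraries (−4.96 ± 1.79, adjusted p = 0.295). For Kcnb2 and Kcnf1 every channel library was below both control libraries.

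Kv3 channels close fast and allow high firing rates, and Kcnc2 and Kcnc4 were measured in the control libraries and nearly absent from the others. Kcnc2 (Kv3.2) had 0.0801 and 0 CPM in Kv1.2 libraries and 0.453 and 0 CPM in Kir2.1 libraries, against 38.6 and 11.1 CPM in control libraries (joint log2 fold change −7.81 ± 2.36, adjusted p = 0.223). Kcnc4 (Kv3.4) had 0 and 0 CPM in Kv1.2 libraries and 0 and 0.181 CPM in Kir2.1 libraries, against 8.17 and 4.91 CPM in control libraries. Relative to control, Kv1.2 cells were at least 55.2-fold lower (adjusted p = 0.394), and Kir2.1 cells were 73.8-fold lower (counting interval 20.0 to 616, adjusted p = 0.528). Kcnc1 was at 1 CPM only in control replicate 2 (3.35 CPM).

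The ether-a-go-go family carries slow currents that steady the resting potential between spikes. Its member Kcnh7 (Erg3) had 4.49 and 2.69 CPM in Kv1.2 libraries and 0.181 and 0.181 CPM in Kir2.1 libraries, against 105 and 55.2 CPM in control libraries. The 3 groups did not overlap, and the Kir2.1 libraries were lowest. The log2 fold change was −4.48 ± 1.49 for Kv1.2 cells (adjusted p = 0.394) and −8.70 ± 1.82 for Kir2.1 cells (adjusted p = 0.421). An exon of Kcnh7 overlaps Gca on the other strand, and without strand the reads of an overlap cannot be assigned. Kcnh2 (Erg1) had 0 and 0.163 CPM in Kv1.2 libraries and 0 and 0.0906 CPM in Kir2.1 libraries, against 1.29 and 2.51 CPM in control libraries (joint counting ratio 28.9-fold lower, interval 9.08 to 147, adjusted p = 0.217). Kcnh1 (Eag1) had 0.320 and 0 CPM in Kv1.2 libraries and 0.453 and 0 CPM in Kir2.1 libraries, against 12.7 and 3.83 CPM in control libraries (joint log2 fold change −5.36 ± 2.13, adjusted p = 0.341).

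Kcnq3 encodes a subunit of the M-channel, which restrains repetitive firing and closes under muscarinic signalling. Kcnq3 had 1.68 and 0.163 CPM in Kv1.2 libraries and 3.17 and 0.453 CPM in Kir2.1 libraries, against 40.1 and 43.1 CPM in control libraries (joint log2 fold change −4.995 ± 1.72, adjusted p = 0.269). Both control libraries were at a like level and lay above all 4 channel libraries.

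Of the Ca2+-activated channels, Kcnn2 (SK2), which carries an afterhyperpolarisation driven by Ca2+, had 0.0801 and 0 CPM in Kv1.2 libraries and 0.453 and 0.0906 CPM in Kir2.1 libraries, against 18.3 and 39.9 CPM in control libraries. It was below 1 CPM in every channel library, with a joint log2 fold change of −7.91 ± 2.06 (adjusted p = 0.201). Exons of Kcnn2 overlap genes on the other strand. Kcnma1, the BK channel, had 0 and 0.244 CPM in Kv1.2 libraries and 1.54 and 7.24 CPM in Kir2.1 libraries, against 6.37 and 24.9 CPM in control libraries, and Kir2.1 replicate 2 overlapped the control libraries (−4.35 ± 2.02, adjusted p = 0.410). Kcnn3 reached 4.31 CPM and Kcnu1 1.44 CPM in control replicate 2, and each was below 1 CPM in the other 5 libraries.

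The inward rectifiers split by gene. Kcnj16 (Kir5.1), the partner of Kcnj10 in glial channels which lies close to Kcnj2 on chromosome 11, had 0 and 0.0814 CPM in Kv1.2 libraries and 0 and 0.181 CPM in Kir2.1 libraries, against 43.0 and 34.0 CPM in control libraries. The 4 channel libraries held 3 counts and the control libraries 716, a 608-fold lower level (interval of the counts 207 to 2954, unadjusted p = 0.00385, adjusted p = 0.196). Kcnj10 (Kir4.1), the main K+ uptake channel of astrocytes, had 10.4 and 58.2 CPM in Kv1.2 libraries and 40.1 and 0 CPM in Kir2.1 libraries, against 21.1 and 137 CPM in control libraries. Its groups overlapped, and the joint log2 fold change was −1.59 ± 1.91 (adjusted p = 0.787). Kcnj4 (Kir2.3) had 0 and 0 CPM in Kv1.2 libraries and 0.0906 and 0 CPM in Kir2.1 libraries, against 0.996 and 2.27 CPM in control libraries, a joint counting ratio of 73.9-fold lower (interval 12.2 to 3016, adjusted p = 0.191). Kcnj3, a subunit of G-protein-gated channels, had 26.9 CPM in control replicate 2 and at most 1 count in any other library.

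Kcnk13, which encodes THIK-1, was the only tested member in which all 4 channel libraries lay above both control libraries. It had 55.4 and 36.2 CPM in Kv1.2 libraries and 101 and 25.2 CPM in Kir2.1 libraries, against 7.17 and 5.51 CPM in control libraries. The log2 fold change was 2.85 ± 1.28 in the Kv1.2 group (unadjusted p = 0.0614, adjusted p = 0.428), 3.31 ± 1.31 in the Kir2.1 group (unadjusted p = 0.0388, adjusted p = 0.521) and 3.08 ± 1.22 in the joint comparison (unadjusted p = 0.0395, adjusted p = 0.341). Microglia markers, in the same order of libraries, took 12.6% and 12.0% of counts in the Kv1.2 group and 7.34% and 11.5% in the Kir2.1 group, against 7.48% and 0.856% in the control group, and their part in the Kcnk13 difference was not tested. Kcnk6 (TWIK-2), a tandem-pore channel known from macrophages, had 14.8 and 10.3 CPM in Kv1.2 libraries and 38.9 and 3.17 CPM in Kir2.1 libraries, against 5.18 and 2.27 CPM in control libraries, and Kir2.1 replicate 2 lay between the control libraries (joint 2.12 ± 1.88, adjusted p = 0.678). Kcnk2 (TREK-1), a mechanosensitive channel, went the other way, with 0.0801 and 0.0814 CPM in Kv1.2 libraries and 0.634 and 0 CPM in Kir2.1 libraries, against 6.57 and 1.44 CPM in control libraries (joint −4.53 ± 1.66, adjusted p = 0.301). Kcnk1 was at 38.5 CPM in control replicate 2 and Kcnk15 at 32.3 CPM in control replicate 1, each with at most 1 count in any other library.

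**Figure D3:**
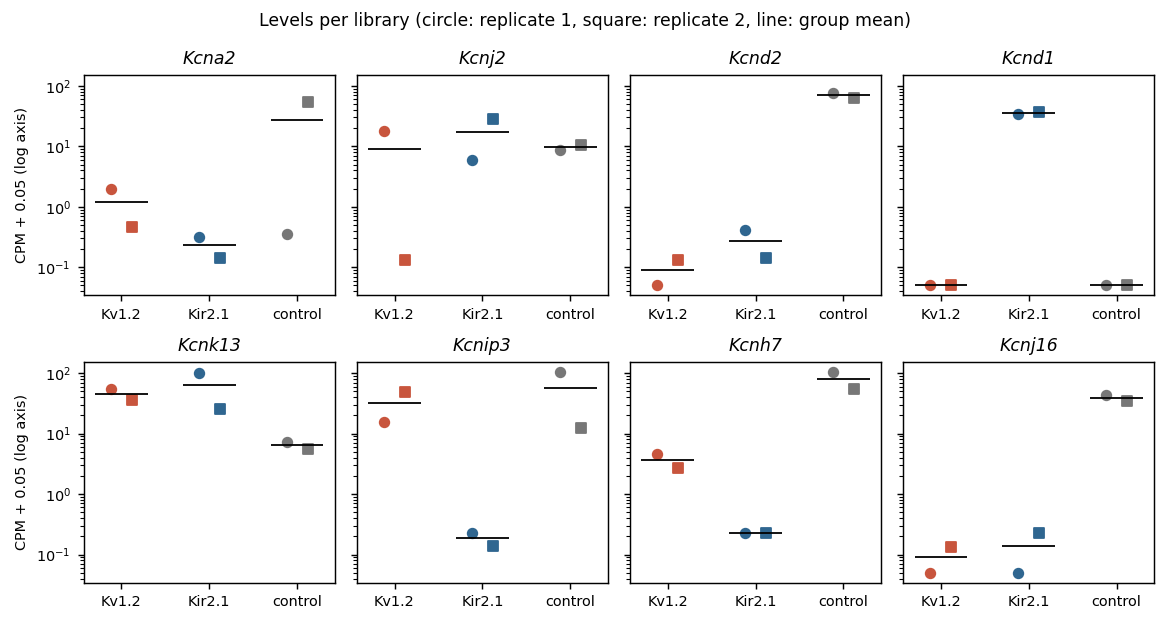
CPM + 0.05 (log axis) of 8 Kcn genes in each library, with Kv1.2, Kir2.1 and control from left to right; circles are replicate 1, squares replicate 2 and lines group means. Kcnd2, Kcnh7 and Kcnj16 are high in both control libraries, Kcnd1 is at 34.2 and 36.2 CPM in the Kir2.1 libraries and at 0 elsewhere, and Kcnk13 lies above the control libraries in all 4 channel libraries.

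The auxiliary genes encode subunits that change gating or surface delivery of the pores. Kcnip3 (KChIP3, also known as DREAM or calsenilin), a Ca2+-binding subunit of Kv4 channels that also represses transcription, had 0.181 and 0.0906 CPM in Kir2.1 libraries and 15.5 and 48.9 CPM in Kv1.2 libraries, against 103 and 12.5 CPM in control libraries. The Kir2.1 libraries were near 0 and the Kv1.2 libraries lay between the control libraries. The Kir2.1 group held 3 counts and the control group 1134, a 454-fold lower level (interval of the counts 155 to 2204, unadjusted p = 0.00458, adjusted p = 0.521). In Kv1.2 cells the log2 fold change was −0.84 ± 1.51 (adjusted p = 0.929). The Kv4 genes and this subunit thus had different patterns: Kcnd2 was near 0 in both channel groups, Kcnip3 in the Kir2.1 group, and Kcnd1 was measured in the Kir2.1 group alone. Kcnip4, a related subunit, had 0.160 and 4.56 CPM in Kv1.2 libraries and 0 and 0 CPM in Kir2.1 libraries, against 0.0996 and 7.06 CPM in control libraries. Kcnab3 (Kvβ3) had 0 and 0 CPM in Kv1.2 libraries and 0.544 and 0.0906 CPM in Kir2.1 libraries, against 3.29 and 19.2 CPM in control libraries, so that Kv1.2 cells were at least 86.6-fold lower (adjusted p = 0.394). Kcnab2 (Kvβ2), the main β subunit of brain Kv1 channels, had 0.160 and 17.8 CPM in Kv1.2 libraries and 0.453 and 4.53 CPM in Kir2.1 libraries, against 40.8 and 6.23 CPM in control libraries, and its groups overlapped (joint −2.31 ± 2.05, adjusted p = 0.678). Kcnab1 (Kvβ1) was at 40.8 CPM in control replicate 1 and below 1 CPM in all other libraries.

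The noncoding Kcnq1ot1, an imprinted antisense transcript of the Kcnq1 locus, had 39.1 and 31.7 CPM in Kv1.2 libraries and 83.5 and 98.6 CPM in Kir2.1 libraries, against 195 and 30.2 CPM in control libraries. The Kir2.1 values lay between those of the control libraries (joint log2 fold change −0.99 ± 0.85, adjusted p = 0.663). Kcnq1ot1 overlaps Kcnq1 on the other strand, and Kcnq1 itself was below 1 CPM in all libraries.

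Per kilobase of exonic length, the order of members differed by group. In the Kv1.2 libraries Kcnk13 was highest (17.8 and 11.6 CPM per kb), followed by Kcnip3 (4.36 and 13.8) and Kcnj10 (1.93 and 10.8), and the ranges of neighbours in this order overlapped. In the Kir2.1 libraries Kcnk13 was again highest (32.5 and 8.09 CPM per kb), above Kcnd1 (6.48 and 6.85) without overlap, and Kcnk6 (9.36 and 0.764) overlapped both. In the control libraries Kcnip3 (28.9 and 3.51 CPM per kb), Kcnj10 (3.90 and 25.3) and Kcnd2 (14.9 and 12.4) led, and their ranges overlapped as well.

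The channel groups were also set against each other. In the comparison of Kir2.1 with Kv1.2, 3 members reached an unadjusted p under 0.05 in edgeR (6.08% of all genes did). Kcnd1 was higher in Kir2.1 cells (4.02% of all genes were), and Kcnip3 (log2 fold change −7.77 ± 2.04, unadjusted p = 0.00651) and Kcnh7 (−4.22 ± 1.503, unadjusted p = 0.0257) were lower (2.05% of all genes were), each with an adjusted p of 0.739. At an unadjusted p under 0.05 in edgeR, Kcnb2, Kcnc4, Kcnd2, Kcnh2, Kcnh7, Kcnj4, Kcnj16 and Kcnn2 were among the members lower than control in each channel group. Both comparisons used the same control libraries, so 1 does not replicate the other. All of these named members but Kcnh7 had passed the minimum through the control libraries only.

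Replicate agreement limited these comparisons most in the control group. Among members at 5 CPM or more in either library of a group, the other library was below 1 CPM for 2 of 7 in the Kv1.2 group, 2 of 8 in the Kir2.1 group and 22 of 43 in the control group, where the shares over all genes were 32.7%, 31.6% and 36.4%. Relative to totals before TMM scaling, 42 of the 71 untested members were below 1 CPM in every library (3 of them, Kcnab3os, Kcne2 and Kcnj12, had 0 counts throughout) and 29 reached 1 CPM in a single library: 21 in control replicate 2, 5 in control replicate 1 and 3 (Kcnip1, Kcnn4 and Kcnt1) in Kir2.1 replicate 1. Of all genes, 12061 reached 1 CPM in control replicate 2 and 9071 in control replicate 1, against 8520 to 10151 in the channel libraries. How many of all genes did so in a single library was not counted. Leaving out control replicate 2 kept 12 of the 17 joint calls at an unadjusted p under 0.05, without Kcna2, Kcnf1, Kcnh1, Kcnh2 and Kcnq3, and Kcna2 then had a log2 fold change of 0.62. All 11 members that passed the minimum through control libraries only were among these 17 joint calls. The tested members stayed the same when each library was left out in turn, and fewer than 17 were then kept. In these fits the joint log2 fold change ran from −10.37 to −8.88 for Kcnd2 and from −6.98 to −6.05 for Kcnh7. Kcnk13 kept its direction in every such fit but reached an unadjusted p under 0.05 only without Kir2.1 replicate 2.

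**Figure D4:**
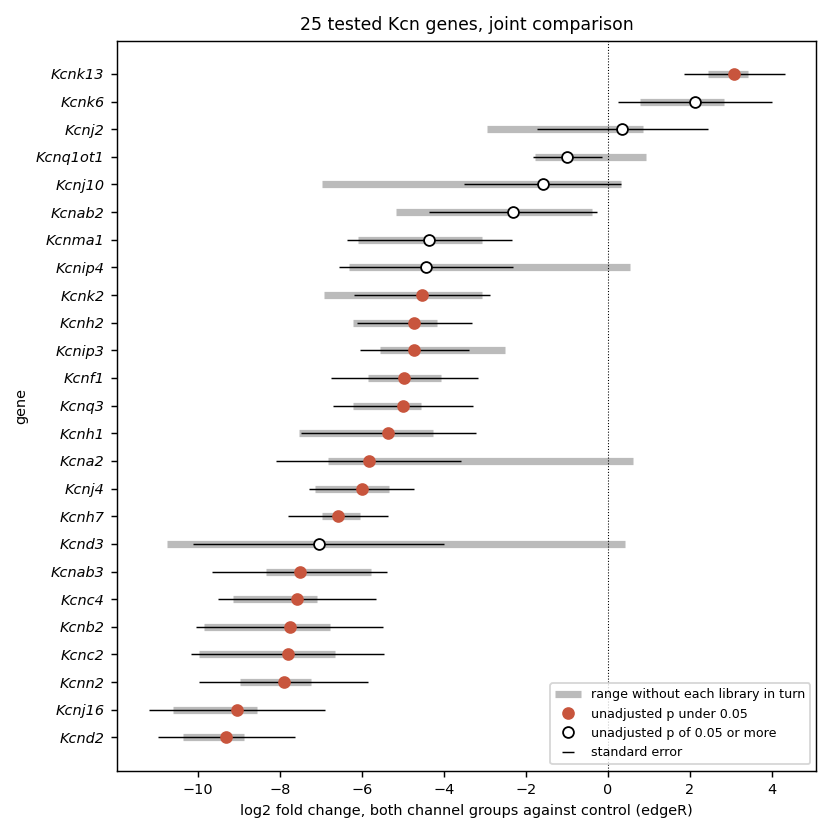
Joint edgeR log2 fold change of both channel groups against control for 25 tested Kcn genes (Kcnd1, at 0 counts in control and Kv1.2, is left out); filled points have an unadjusted p under 0.05, thin lines are standard errors and grey bars the range when each library was left out in turn; folds of genes with a group at 0 counts depend on the prior count. Filled points run from −9.30 (Kcnd2) to 3.08 (Kcnk13), and the grey bars of Kcna2, Kcnd3, Kcnip4, Kcnj2, Kcnj10 and Kcnq1ot1 cross 0.

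Genes that work with K+ channels were read from lists of partners. Of 13 partner proteins of Kv channels, all tested, 6 were lower and 0 higher at an unadjusted p under 0.05 in the joint comparison, where 10.5% and 2.85% of all genes were, and their median log2 fold change was −4.26, beside −0.19 over all genes. Dlg2 (PSD-93), a scaffold that clusters Kv1 channels, had 0.481 and 0.244 CPM in Kv1.2 libraries and 0.544 and 0.181 CPM in Kir2.1 libraries, against 42.5 and 851 CPM in control libraries (−10.22 ± 1.35, adjusted p = 0.0683). Cntn2, which anchors Kv1 channels beside the node of Ranvier, had 0.160 and 0.163 CPM in Kv1.2 libraries and 0.272 and 0.0906 CPM in Kir2.1 libraries, against 5.78 and 1.197 CPM in control libraries (adjusted p = 0.219). Some of the 6 lower partners, Dlg2 and Cntn2 among them, had passed the minimum for testing through the control libraries only. That fixed their direction, so the count and the median of this list are a description. Of the 12 Na+/K+-ATPase genes, 8 were tested, 5 were lower and 1 higher, beside the same 10.5% and 2.85% of all genes. The regulator Fxyd1 had 11.1 and 0 CPM in Kv1.2 libraries and 0.272 and 0.181 CPM in Kir2.1 libraries, against 31.0 and 1339 CPM in control libraries (adjusted p = 0.191). The β3 subunit Atp1b3 was the 1 higher gene, with 354 and 161 CPM in Kv1.2 libraries and 283 and 430 CPM in Kir2.1 libraries, against 57.6 and 58.2 CPM in control libraries (2.39 ± 0.63, adjusted p = 0.201).

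Of 7 cation-chloride cotransporters, 5 were tested and 1 was lower (10.5% of all genes were). That gene, Slc12a5 (KCC2), the K+-Cl− exporter of mature neurons, had 0 and 0.0814 CPM in Kv1.2 libraries and 0.725 and 6.97 CPM in Kir2.1 libraries, against 0.199 and 92.3 CPM in control libraries, so that its high level was found in control replicate 2 alone (adjusted p = 0.291). Slc12a2 (NKCC1), the importer that keeps chloride high in young neurons and is also used by glia, had 53.8 and 104 CPM in Kv1.2 libraries and 274 and 115 CPM in Kir2.1 libraries, against 55.3 and 18.6 CPM in control libraries (joint 1.74 ± 0.84, adjusted p = 0.427). Of 6 partner subunits of BK and KATP channels, only Abcc8 (SUR1) was tested, and its joint log2 fold change was −2.58 ± 1.15 (adjusted p = 0.393).

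The promoters of members were searched on both strands for the cAMP response element TGACGTCA and for its core TGACG, through which CREB couples activity to transcription. RefSeq promoters (GRCm38.p6, 250 bases before to 50 after a start) were matched for 72 of the 99 members, 97 promoters in all. The full element was in 0 of the 97 and in 1.79% of all 32851 promoters, and the core, which the full element contains, was in 19.6% of the 97 and in 20.8% of all promoters. Among the 17 members lower in the joint comparison, 12 were matched to a promoter, 23 promoters in all. The core was in 8.7% of these 23, beside 20.8% of all promoters. Of the 12 members, only Kcnc4 and Kcnj4 held the core. These promoters are shown with the core in capitals, beside that of Kcnk13, the member higher in the joint comparison, which held none: Kcnj4 at chr15:79505192-79505491 (minus strand), Kcnc4 at chr3:107458849-107459148 (minus strand) and Kcnk13 at chr12:99964249-99964548 (plus strand).
Kcnj4: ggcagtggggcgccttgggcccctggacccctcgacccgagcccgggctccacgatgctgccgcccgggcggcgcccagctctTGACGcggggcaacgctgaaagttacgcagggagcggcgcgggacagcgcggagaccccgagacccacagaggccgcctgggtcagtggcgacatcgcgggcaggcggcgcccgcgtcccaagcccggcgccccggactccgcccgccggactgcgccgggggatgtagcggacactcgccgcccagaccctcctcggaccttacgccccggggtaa
Kcnc4: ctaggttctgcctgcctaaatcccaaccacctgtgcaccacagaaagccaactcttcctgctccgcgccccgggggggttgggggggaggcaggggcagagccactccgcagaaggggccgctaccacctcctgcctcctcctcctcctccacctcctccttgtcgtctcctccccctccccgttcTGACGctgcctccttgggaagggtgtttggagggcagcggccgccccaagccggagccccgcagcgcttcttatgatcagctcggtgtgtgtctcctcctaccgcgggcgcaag
Kcnk13: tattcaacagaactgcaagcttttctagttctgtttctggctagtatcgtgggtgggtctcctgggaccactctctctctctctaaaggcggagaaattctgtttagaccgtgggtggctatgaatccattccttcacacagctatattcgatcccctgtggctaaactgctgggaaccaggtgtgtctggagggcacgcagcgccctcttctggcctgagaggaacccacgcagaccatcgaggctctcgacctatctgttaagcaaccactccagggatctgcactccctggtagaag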

How the data were processed

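RNA from sorted Twitch-2B-positive cells was measured in 6 libraries (control, Kv1.2 and Kir2.1, 2 each, by their labels). After trimming, reads had been aligned by the authors with STAR 2.7.0f (genome: Ensembl GRCm38), handled with SAMtools 1.9 and assigned to genes with Subread 1.6.4, as the methods and the submitters' notes state. The authors deposited these values as raw counts per gene, without normalization. The kit does not mark strand. Other deposited tables (normalized values, and the authors' comparisons with fold changes, p-values and FDR) were not used.

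The 12275 genes that reached 1 CPM of the library total before TMM scaling in 2 or more libraries were fitted together with edgeR 4.0.16 in R 4.3.3 (TMM, glmQLFit, glmQLFTest) in 4 contrasts, the joint one being the mean of both channel groups minus control. P-values were two-sided and adjusted by Benjamini-Hochberg over all 12275 genes (threshold 0.05). The SE is the log2 fold change divided by the square root of F, which restates the test. A group at 0 counts was set to a floor of 3 counts, and groups with 1 to 3 counts got a 95% exact binomial interval of the ratio. Floors and intervals cover counting error only. The fit was tested on simulated data with a fixed spread between replicates that was not taken from these libraries. It therefore checks the code and not how the fit behaves on these data. Members and lists were chosen with earlier results of these data known. Named genes were the overexpressed channels, Kcnip3, all members at an unadjusted p under 0.05 against control, the 4 highest members of each class, and the 2 members of each partner list with the smallest joint p; genes named beyond these were chosen after their values were seen. A few named genes and 1 partner list are not reported here. Gene positions of all 99 members came from GENCODE. Marker lists of border-associated macrophages, oligodendrocytes and their precursors, endothelial, mural and T or NK cells were also summed. Alternatives were DESeq2 1.42.0, RLE scaling, no count minimum, the likelihood ratio test, a replicate block, the compared groups alone and each library left out.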

Additional observations from a re-analysis of the deposited data

Results flagged for a closer look

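For 3 members the difference between the channel groups themselves reached an unadjusted p under 0.05 in edgeR. Kcnip3 had a log2 fold change of −7.77 in Kir2.1 against Kv1.2 cells (unadjusted p = 0.00651), Kcnd1 one of 11.58 (unadjusted p = 0.0152; fitted against a group at 0 counts, so its size depends on the prior count) and Kcnh7 one of −4.22 (unadjusted p = 0.0257). Each had an adjusted p of 0.739. Kcnd1 had passed the minimum for testing through the Kir2.1 libraries only, which fixed its direction. The causes were not tested.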

How the results depend on the processing

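The choice of test set how many Kcn genes passed an adjusted p of 0.05. In the Kv1.2, Kir2.1 and joint comparisons the count was 0 in edgeR's quasi-likelihood test, 11, 12 and 12 with DESeq2 and 6, 4 and 15 with the likelihood ratio test, and it was 1 in the joint comparison with no count minimum. DESeq2 called 1307, 989 and 1228 of all 12275 genes and the likelihood ratio test 723, 225 and 1097, and with no count minimum the joint comparison called 263 of 39646. Leaving out any library gave 0 in each comparison. At an unadjusted p under 0.05, the count with no count minimum reached 26 for Kv1.2 and 34 in the joint comparison, with more genes tested (8.37% and 9.66% of all genes). It was 8 in the Kir2.1 comparison with only the compared groups (9% of all genes), and 5 (DESeq2) and 6 (likelihood ratio test) for Kir2.1 against Kv1.2 (13.7% and 13.6%). Without each library in turn it ran from 3 to 12 (Kv1.2, lowest without Kv1.2 replicate 1), 5 to 11 (Kir2.1, lowest without control replicate 2 or Kir2.1 replicate 2), 12 to 14 (joint) and 2 to 3 (Kir2.1 against Kv1.2), where 6.66% to 13.8%, 4.46% to 11.8%, 9% to 16% and 4.44% to 6.04% of all genes were. The median log2 fold change was −2.97, −2.42 and −3.03 with no count minimum, and without each library it ran from −6.27 to −4.35 (Kv1.2), −7.32 to −4.24 (Kir2.1) and −6.75 to −4.56 (joint). RLE scaling moved none of these values by 1.5 times. In the joint comparison, Kcnc2, Kcnc4, Kcnd2, Kcnh7, Kcnj16 and Kcnn2 were among the members that stayed lower in all 12 settings. All of these named members but Kcnh7 had passed the minimum through the control libraries only, which fixed their direction. Where the cause of a change is not named, it was not tested.

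Same-numbered libraries did not deviate together (correlations 0.0116, −0.0371 and −0.00199), so no pairing by replicate number was seen. With 2 libraries a group that differ widely from each other, such correlations cannot exclude a pairing. With a replicate block, 10, 7 and 15 members were at an unadjusted p under 0.05 in the Kv1.2, Kir2.1 and joint comparisons, where 7.9%, 5.56% and 9.88% of all genes were, and the medians were −5.71, −5.72 and −5.90.

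Some signs depended on 1 library. The log2 fold change without each library ran, against control, in the Kv1.2 group from −6.02 to 1.93 for Kcna2, −7.10 to 0.55 for Kcnab2, −1.89 to 1.38 for Kcnip3, −4.38 to 4.42 for Kcnip4, −2.92 to 0.70 for Kcnj10, −6.70 to 0.87 for Kcnj2 (0.15 with no count minimum) and −2.46 to 0.24 for Kcnq1ot1. In the Kir2.1 group it ran from −0.74 to 1.57 for Kcnj2, −10.75 to 4.15 for Kcnd3, −0.20 to 3.37 for Kcnk6 and −1.10 to 1.596 for Kcnq1ot1 (0.076 with a replicate block). In the joint comparison it ran from −6.83 to 0.62 for Kcna2, −10.75 to 0.41 for Kcnd3, −6.32 to 0.55 for Kcnip4, −6.96 to 0.31 for Kcnj10, −2.94 to 0.85 for Kcnj2 and −1.78 to 0.92 for Kcnq1ot1. Levels near 1 count per library, about 0.1 CPM, cannot be told from 0.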

Other observations

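Smaller marker lists differed between single libraries. Border-associated macrophage markers summed to 47.3 to 53.0 CPM in Kv1.2 libraries and 146 to 1622 CPM in Kir2.1 libraries, against 21.0 to 59.1 CPM in control libraries. T and NK cell markers summed to 87.5 to 336 CPM in Kv1.2 libraries and 0 to 0.725 CPM in Kir2.1 libraries, against 0.120 to 0.299 CPM in control libraries. Oligodendrocyte markers summed to 33.6 to 58.7 CPM in Kv1.2 libraries and 31.0 to 112 CPM in Kir2.1 libraries, against 250 to 660 CPM in control libraries, and precursor markers to 0.0801 to 0.407 CPM and 0.815 to 25.1 CPM, against 15.6 to 34.1 CPM. Endothelial markers reached at most 10.1, 2.26 and 17.4 CPM and mural markers 36.5, 5.89 and 44.4 CPM in the Kv1.2, Kir2.1 and control groups. Their part in the differences of K+ channel genes was not tested.

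Kir2.1 replicate 1 held low counts of many members: 56 had 1 to 10 counts there and 23 of the 96 members with any count had their highest level in it, against 4 in Kir2.1 replicate 2, 4 and 1 in the Kv1.2 libraries, and 26 and 38 in the control libraries. Of all genes, 10151 reached 1 CPM before TMM scaling in this library, against 8520 to 8727 in the other channel libraries. The same counts were not taken over all genes, so they cannot be read as particular to this family.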
